A study of Mus musculus with 4 samples.

Results

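Heat shock proteins and J-domain proteins are the molecular chaperones that fold, refold and sort other proteins. The genes described here were all protein-coding genes of chromosomes 1 to 19 whose symbol begins with Hspa, Hspb, Hspd, Hspe, Hsph or Hsp90, or with Dnaja, Dnajb or Dnajc and a digit, together with Hsf1, Hsf2 and Bag3. Symbols and transcript starts were those of the GENCODE mouse annotation M21. The rule used names only and gave 77 of 20807 genes, with 140 of 39627 annotated starts. The 8 genes named Hspb with a number are called small heat shock protein genes here, by symbol alone. There were 19 genes of the HSP70, HSP90 and chaperonin families, 45 J-domain genes and 5 regulators and cofactors.

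Acetylation of histone H3 at lysine 27 (H3K27ac), a chromatin mark found at active promoters and enhancers, was measured by chromatin immunoprecipitation and sequencing. The tissue was the gastrocnemius, a calf muscle, of adult female mice at an age of 2 months, from the hybrid strain B6CASTF1/J. All 4 libraries belonged to this 1 group, with no treatment named and no other tissue for comparison, as 2 biological replicates with 2 technical libraries each. Each replicate was a pool of 2 tissue samples, and both carried the same donor label, so whether the pools came from different animals is not stated. The measurements were 4 deposited lists of acetylated regions (peaks) on the assembly mm10, 1 for each replicate, 1 for the pooled reads and 1 replicated list made from both, which is used below unless a replicate is named. The replicated list held 84452 regions over 118 Mb, the list of replicate 1 held 70953 over 85.11 Mb, and that of replicate 2 held 86937 over 117.8 Mb. The lists hold no read counts, so depth is unknown, and no test between groups exists: the 2 replicates are set side by side as the measure of error. Where a value is followed by 2 more in parentheses, these are replicate 1 and then replicate 2.

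Chaperones are known for a division of labour. Small heat shock proteins hold unfolding proteins in solution without using ATP. HSP70 proteins then bind and release them in cycles that J-domain proteins start and nucleotide exchange factors end, HSP90 finishes the folding of kinases and receptors, and the chaperonin HSP60 with its lid HSP10 folds proteins inside mitochondria. The heat shock factor HSF1 switches many of these genes on by binding heat shock elements, repeats of the letters GAA in alternating orientation. In skeletal muscle, where contraction strains the Z-disc, BAG3 joins HSPB8 and HSP70 in a complex that removes damaged filamin by autophagy.

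The promoter sequences below show the 2 regulatory elements for which these genes are known, in members whose acetylation is described further on. They are RefSeq windows on GRCm38.p6, the assembly also called mm10, and run from 250 bases before to 50 after the transcript start, 5′ to 3′ on the strand of the gene. Capitals in the first 6 mark matches to 2 adjoining units of a heat shock element (GAANNTTC or TTCNNGAA, where N is any base). Overlapping matches are joined. Hspe1, the gene of the chaperonin lid (chr1:55087898-55088197, plus strand), and Hsph1, a nucleotide exchange factor of the HSP70 family (chr5:149636266-149636565, minus strand), each held 3 matches, and a full element of 3 units. Hspa1a (chr17:34972107-34972406, minus strand) and Hspa1b (chr17:34959189-34959488, minus strand), the pair of classical heat-inducible HSP70 genes, are shown because their windows were identical at 296 of 300 positions (98.7%). Bag3 (chr7:128523333-128523632, plus strand) and Hspb8 (chr5:116422815-116423114, minus strand), the autophagy partners, each held 1 match, just after the start. For each gene printed here or below, the window shown was the most acetylated of its windows with a match. All 6 were acetylated over all 300 bases, beside 82.3% of member windows and 49.7% of all windows.
Hspe1: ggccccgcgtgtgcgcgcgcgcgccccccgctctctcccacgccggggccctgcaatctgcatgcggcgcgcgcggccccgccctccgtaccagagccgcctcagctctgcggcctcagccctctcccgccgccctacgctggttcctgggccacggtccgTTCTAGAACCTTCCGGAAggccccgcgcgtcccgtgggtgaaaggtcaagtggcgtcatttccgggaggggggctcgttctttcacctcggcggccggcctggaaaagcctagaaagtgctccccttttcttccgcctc
Hsph1: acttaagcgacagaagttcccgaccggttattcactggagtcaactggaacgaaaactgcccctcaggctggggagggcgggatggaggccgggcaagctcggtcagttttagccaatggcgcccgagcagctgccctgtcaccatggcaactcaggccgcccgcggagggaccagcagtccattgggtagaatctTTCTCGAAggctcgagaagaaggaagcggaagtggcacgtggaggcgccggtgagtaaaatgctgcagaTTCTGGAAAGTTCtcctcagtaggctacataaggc
Hspa1a: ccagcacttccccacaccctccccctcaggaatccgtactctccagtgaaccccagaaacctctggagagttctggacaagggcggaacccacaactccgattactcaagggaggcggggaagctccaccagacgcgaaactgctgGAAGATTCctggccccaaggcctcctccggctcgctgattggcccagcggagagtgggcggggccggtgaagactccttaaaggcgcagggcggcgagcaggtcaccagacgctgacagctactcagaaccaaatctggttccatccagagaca
Hspa1b: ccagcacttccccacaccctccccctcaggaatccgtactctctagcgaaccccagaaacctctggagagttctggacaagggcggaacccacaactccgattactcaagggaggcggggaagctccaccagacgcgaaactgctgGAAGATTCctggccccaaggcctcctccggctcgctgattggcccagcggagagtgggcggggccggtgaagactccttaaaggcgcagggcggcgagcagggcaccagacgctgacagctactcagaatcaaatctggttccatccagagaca
Bag3: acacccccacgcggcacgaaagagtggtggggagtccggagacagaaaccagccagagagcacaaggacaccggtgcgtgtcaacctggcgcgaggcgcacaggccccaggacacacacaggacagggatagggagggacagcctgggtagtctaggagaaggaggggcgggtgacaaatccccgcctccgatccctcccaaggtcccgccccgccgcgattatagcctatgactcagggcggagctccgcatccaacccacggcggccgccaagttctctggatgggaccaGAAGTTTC
Hspb8: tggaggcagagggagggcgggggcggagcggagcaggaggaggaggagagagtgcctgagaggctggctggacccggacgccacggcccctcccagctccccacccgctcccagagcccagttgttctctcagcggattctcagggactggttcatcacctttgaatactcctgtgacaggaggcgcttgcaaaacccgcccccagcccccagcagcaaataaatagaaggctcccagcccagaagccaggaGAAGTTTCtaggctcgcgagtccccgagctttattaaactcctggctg

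A second element, the ER stress response element (the letters CCAAT and CCACG with any 9 bases between them), is known from chaperones of the endoplasmic reticulum, where unfolded proteins induce them. It is in capitals in Hspa5, the gene of the ER-resident HSP70 BiP (chr2:34771840-34772139, plus strand), and in Hsp90b1, the gene of the ER-resident HSP90 (chr10:86705395-86705694, minus strand). Hsp90b1 held 2 matches, the second as its reverse complement. The Hspa5 window was acetylated over 127 of its 300 bases and the Hsp90b1 window over all 300.
Hspa5: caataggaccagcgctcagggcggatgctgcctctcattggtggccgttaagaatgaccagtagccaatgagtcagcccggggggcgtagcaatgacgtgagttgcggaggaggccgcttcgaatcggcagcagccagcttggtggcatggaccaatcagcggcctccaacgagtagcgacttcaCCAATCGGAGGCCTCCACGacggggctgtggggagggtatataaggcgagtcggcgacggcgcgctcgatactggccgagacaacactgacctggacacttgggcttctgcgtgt
Hsp90b1: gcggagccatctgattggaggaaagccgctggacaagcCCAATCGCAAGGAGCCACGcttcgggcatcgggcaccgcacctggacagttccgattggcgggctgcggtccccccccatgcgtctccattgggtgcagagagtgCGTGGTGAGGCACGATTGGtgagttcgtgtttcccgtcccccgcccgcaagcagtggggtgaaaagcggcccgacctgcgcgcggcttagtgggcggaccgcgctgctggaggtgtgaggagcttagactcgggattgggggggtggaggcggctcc

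Nearly all of these chaperone genes were acetylated at their promoters in both replicates. A gene was counted as having a promoter region where a region came within 1 kb of any of its starts. This held for 71 of the 77 members (92.2%), beside 62.1% of all 20807 genes. In replicate 1 the count was 70 members (90.9%), beside 59.8% of all genes, and in replicate 2 it was 71 (92.2%), beside 62.0%. Both replicates called 70 members (90.9%), beside 59.5% of all genes. Within 5 kb of a start, 73 members (94.8%) had a region, beside 65.8% of all genes.

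The acetylated length of a gene counts how many of the 10000 bp around a start, 5 kb to each side, lay in regions, at whichever start gave the most. The median member had 3186 bp (2380 and 2882 bp). The median over all genes was 1524 bp (1241 and 1517 bp), so the ranges of the replicates did not overlap. The member median in the replicated list lay above both of its replicate values, so these do not bound it. Among genes that had a promoter region, the medians were 3248 bp for members and 2608 bp for all genes. A length over 5000 bp was reached by 17 members (22.1%), beside 13.1% of all genes, and a length of 0 bp was found for 4 members (5.19%), beside 34.2%.

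**Figure D1:**
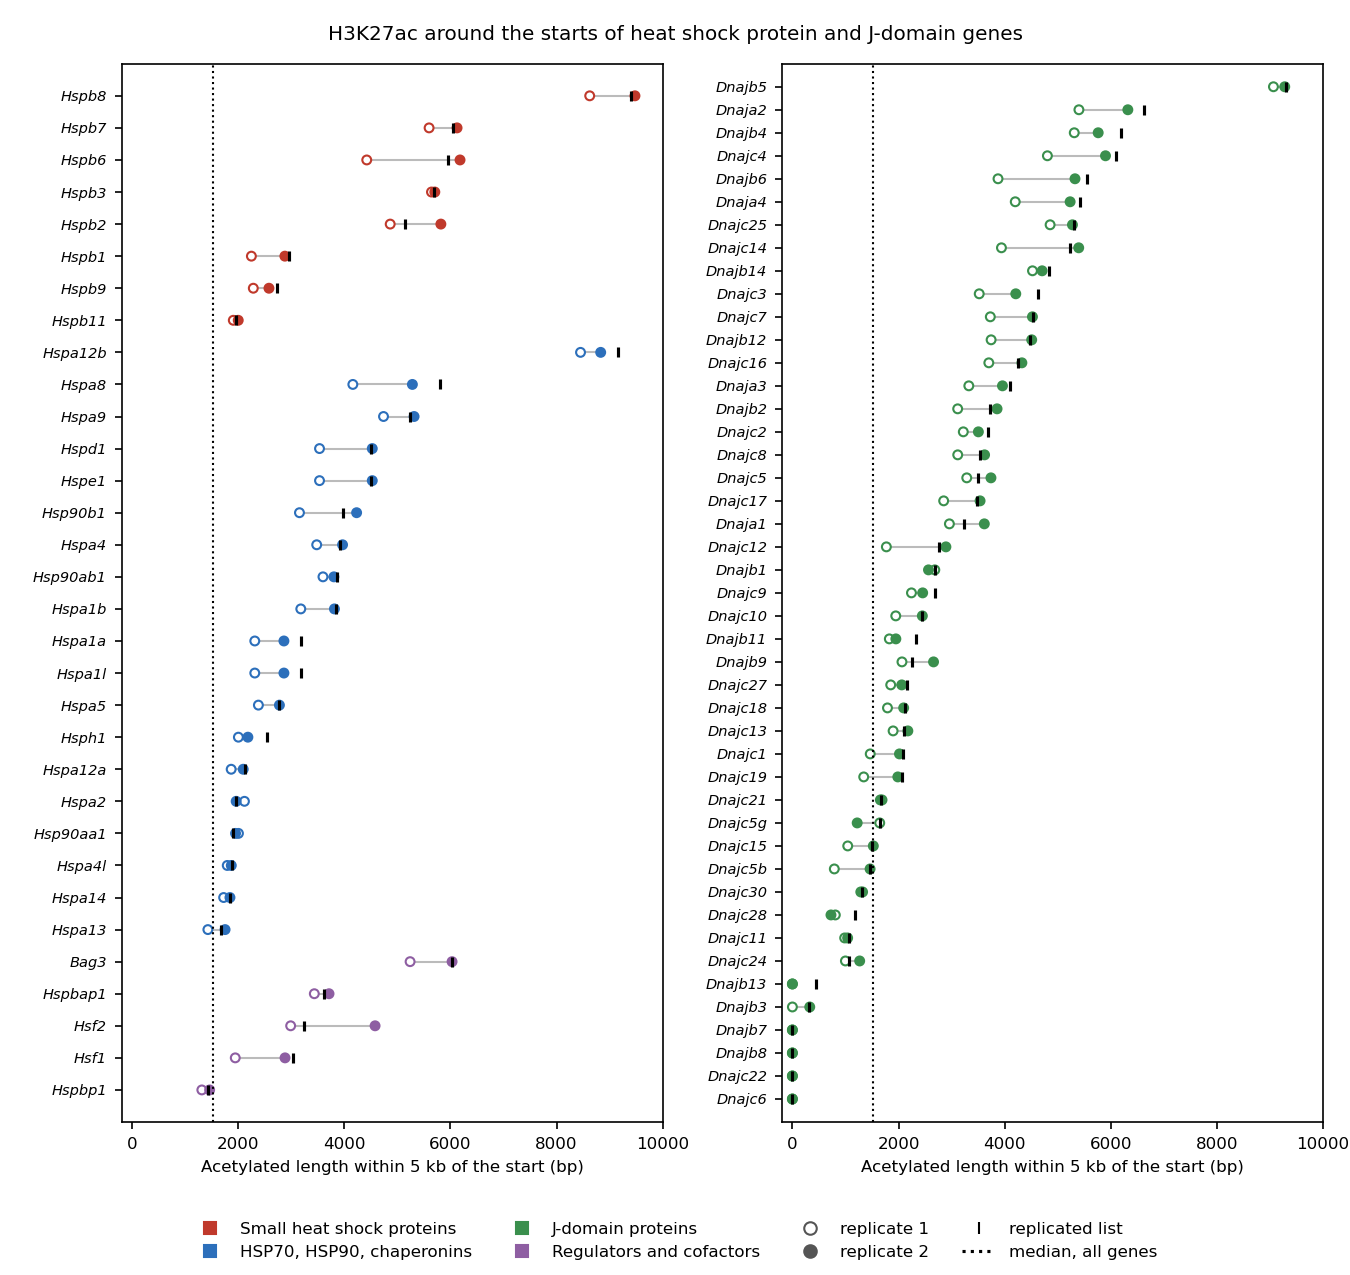
Acetylated length within 5 kb of the start (x axis, bp) for each of the 77 members (y axis), coloured by family. Open circles are replicate 1, filled circles replicate 2, black ticks the replicated list, and the dotted line is the median of all genes, 1524 bp. Hspb8, Dnajb5 and Hspa12b are the top 3, and each has both replicates at the right of all other members, and 4 J-domain genes lie at 0 bp in all of these lists.

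Many chaperone genes start in CpG-rich sequence, a promoter type that is commonly acetylated in any tissue, so members were also set beside genes of their own promoter type. A start was called CpG-rich where the 1000 bp around it had a ratio of observed to expected CpG of at least 0.6 and over 50% G and C, which uses only the sequence. By this call 55 members (71.4%) and 50.6% of all genes had a CpG-rich start. Of those 55 members 54 had a promoter region (98.2%), beside 90.3% of all CpG-rich genes. Their median length was 3248 bp (2959 and 3537 bp), beside 2424 bp (2018.5 and 2411 bp) for all CpG-rich genes. Of the 22 members with no CpG-rich start, 17 had a promoter region (77.3%), beside 33.3% of all such genes, and their median length was 2428 bp, beside 0 bp. Members thus had larger shares with a promoter region and longer median stretches than all genes within both promoter types. A length over 5000 bp was about as common in CpG-rich members (18.2%) as in all CpG-rich genes (18.4%). Without a CpG-rich start these shares were 31.8% and 7.55%. The part that promoter type takes in the acetylation of a single gene was not tested.

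**Figure D2:**
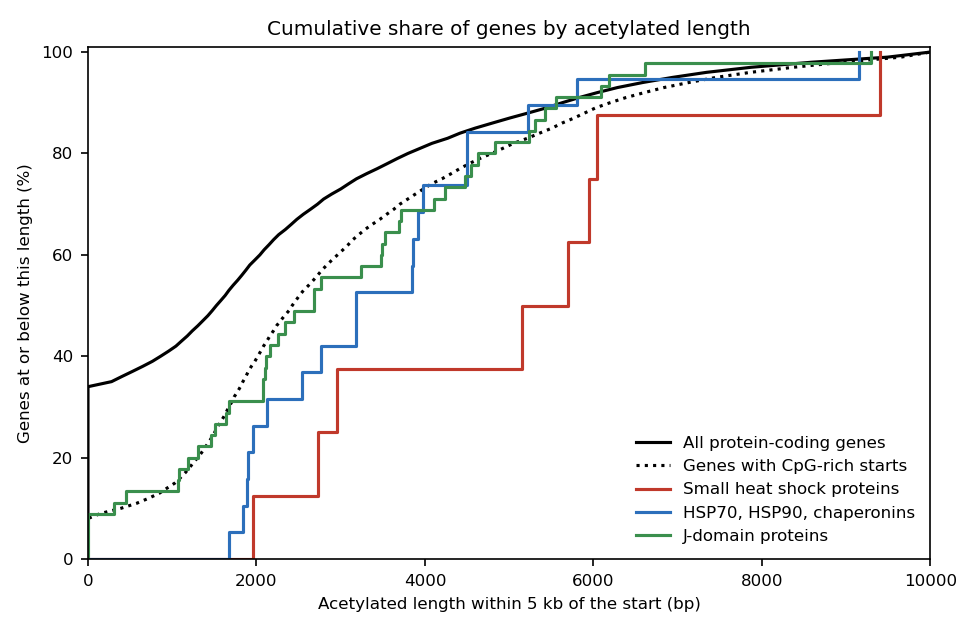
Cumulative share of genes (y axis, %) at or below each acetylated length (x axis, bp) in the replicated list, for small heat shock protein genes (red), HSP70, HSP90 and chaperonin genes (blue), J-domain genes (green), all genes (black) and all genes with CpG-rich starts (dotted). The J-domain curve runs close to that of CpG-rich genes, with medians of 2680 and 2424 bp, and the red curve lies to the right, with a median of 5424.5 bp.

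The heat shock factor genes Hsf1 and Hsf2 had acetylated regions at their starts, though that of Hsf1 was shared with a neighbouring gene. Hsf1, the main heat-responsive factor, had a length of 3037 bp (1944 and 2882 bp). Hsf2, its relative with roles in development, had 3248 bp (2988 and 4579 bp). Replicate 2 was the higher for both, and for Hsf2 its excess of 1591 bp was among the 5 largest differences between replicates. The strongest signal value near a start of Hsf1 was 33.1 (24.1 and 32.9), and for Hsf2 it was 37.3 (29.1 and 38.5). The signal value is the strength the authors gave each region, and only its order within a list is used. The Hsf1 region (chr15:76477401-76478927) also lay within 1 kb of a start of Bop1, a ribosome biogenesis gene, so it cannot be assigned to either gene.

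Bag3, the cochaperone that connects HSP70 to small heat shock proteins and to autophagy, lay under the widest region of all members. That region (chr7:128522584-128545442) was 22859 bp wide and ranked 23 by width among all 84452 regions. It began 1032 bp before the start and covered 93.4% of the gene, which is 23366 bp long. In replicate 2 the region at the promoter was 22926 bp wide, and regions covered 94.7% of the gene. In replicate 1 the stretch was broken into 4 regions, of which the one at the promoter was 3259 bp wide, yet together they covered 84.4% of the gene. The unbroken width was thus seen in replicate 2 and the replicated list, while both replicates had most of the gene acetylated. Within 5 kb of the start its length was 6032 bp (5239 and 6030 bp), with a signal value of 51.0 (45.5 and 48.6).

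The remaining cofactors had shorter stretches. Hspbp1, a nucleotide exchange factor for HSP70, had 1439 bp (1314 and 1461 bp), close to the median of all genes, 1524 bp (1241 and 1517 bp). Hspbap1, named for binding to a small heat shock protein, had 3612 bp (3434 and 3711 bp), in a region shared with the neighbouring Dirc2.

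Small heat shock protein genes had the longest acetylated stretches of the 3 chaperone families. Each replicate had a promoter region at all 8, beside 59.5% of all genes. The median length was 5424.5 bp (4643 and 5762 bp). The medians were 3186 bp (2380 and 2861 bp) for the HSP70, HSP90 and chaperonin genes and 2680 bp (2065 and 2565 bp) for the J-domain genes, below both replicate values of the small heat shock proteins. A length over 5000 bp was reached by 5 of the 8 genes (62.5%), beside 13.1% of all genes. Only Hspb1 and Hspb11 of the 8 had a CpG-rich start. Stretches over 5000 bp belonged to the 5 genes Hspb8, Hspb7, Hspb6, Hspb3 and Hspb2, and the other 3 had shorter ones.

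Hspb8, the autophagy partner of BAG3, had 9407 acetylated bp (8624 and 9477 bp). It was the longest of the 77 members in the replicated list and in replicate 2, and second to Dnajb5 in replicate 1, and lay at percentile 98.9 of all genes. Its strongest region (chr5:116421384-116427508, 6125 bp, signal value 53.5) reached 4644 bp upstream of the start, and a further 2 regions followed within 5 kb downstream. The promoter region was narrower in replicate 1 (3117 bp) than in replicate 2 (6170 bp).

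Hspb7, a muscle small heat shock protein that binds filamin C, had 6040 bp (5597 and 6124 bp). The region at its start (chr4:141419650-141424715) had a signal value of 26.4 (13.8 and 29.7). The next region downstream (chr4:141424805-141427488) overlapped no coding start within 1 kb and was the stronger, at 45.3. For Hspb7 the start was therefore not where the signal was highest.

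Hspb6, also called HSP20, had 5952 bp (4422 and 6180 bp). The difference of 1758 bp was the largest between replicates of any member. Its region (chr7:30551333-30556013, signal value 45.4) spanned the start of the neighbouring Proser3 as well.

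Hspb3 and Hspb2 encode proteins that assemble with each other in muscle. Hspb3, a gene of 781 bp, lay inside a single region of 8623 bp (chr13:113655751-113664373), which was about as wide in the replicates (8466 and 8692 bp). Its length was 5698 bp (5642 and 5705 bp), the closest agreement between replicates among the 5 long ones. Hspb2 had 5151 bp (4864 and 5819 bp), and its region (chr9:50750371-50755426, signal value 42.5) also held a start of Cryab. Cryab encodes alpha B-crystallin, a further small heat shock protein of muscle that the naming rule does not take, and had 6119 bp (5832 and 6143 bp).

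The other 3 small heat shock protein genes had stretches below 3000 bp. Hspb1, the widely expressed HSP27 that binds actin, had 2954 bp (2248 and 2879 bp) with a signal value of 36.7 (27.2 and 39.5). Hspb11, whose product is a subunit of ciliary transport trains, had 1956 bp (1907 and 2000 bp) in a region shared with Lrrc42. Hspb9, known from testis, had 2725 bp (2284 and 2579 bp), but its signal value was 7.01 (6.24 and 11.6), among the 5 lowest of all members with a promoter region. The Hspb9 region (chr11:100713311-100714775) also lay within 1 kb of a start of Kat2a, an acetyltransferase gene whose own region was stronger in the replicates (22.0 and 26.8).

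Promoter regions were found in each replicate at all 19 genes of the HSP70, HSP90 and chaperonin families, beside 59.5% of all genes. The median length of these 19, 3186 bp (2380 and 2861 bp), stood beside 2424 bp (2018.5 and 2411 bp) for all CpG-rich genes. The replicate values overlapped. Of the 19, 16 had a CpG-rich start, a type in which 90.3% of all genes had a promoter region. Lengths ran from 1675 bp for Hspa13 to 9158 bp for Hspa12b, and 3 of the 19 were over 5000 bp (15.8%, beside 13.1% of all genes).

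Among the cytosolic HSP70 genes, the constitutive Hspa8 had the strongest promoter of all 77 members. Its signal value was 63.4 (54.0 and 60.7), in a region of 4484 bp (chr9:40798048-40802531). The length was 5801 bp (4160 and 5282 bp), spread over 6 regions of which the other 5 had signal values from 2.97 to 5.02. Hspa8 thus had 1 strong region flanked by weak ones. Hspa2, a further HSP70 gene best known from testis, had 1960 bp (2117 and 1961 bp) with a signal value of 45.9 (46.6 and 46.3).

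Hspa1a and Hspa1b, the heat-inducible HSP70 genes, were acetylated at their starts in muscle for which no heat treatment is named. Hspa1b had 3843 bp (3179 and 3813 bp) and a signal value of 34.8 (29.6 and 38.7). Hspa1a had 3186 bp (2312 and 2861 bp) and 31.9 (20.0 and 32.2). Their order was the same in both replicates for both measures. Hspa1l, a testis-biased HSP70 gene that starts beside Hspa1a in the opposite direction, shared the Hspa1a region (chr17:34971717-34974294) and its values. Acetylation stopped 439 and 431 bp into Hspa1a and Hspa1b, and covered 14.8% and 15.4% of these short genes. The genes are near-identical copies, and the placing of reads that match both is not stated, so the split between them is uncertain.

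The nucleotide exchange factors of the HSP70 family differed in length. Hspa4 had 3921 bp (3479 and 3966 bp) with a signal value of 54.4, Hsph1 had 2537 bp (2003 and 2182 bp), and Hspa4l had 1884 bp (1793 and 1869 bp). Hspa4 was above the other two in both replicates.

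Hspa12b, a distant HSP70 relative known from endothelium, had the third longest stretch of all members. The length was 9158 bp, with 8451 and 8831 bp in the replicates, and regions covered 85.5% of its 19042 bp (78.0% and 85.2%). Its signal value of 29.6 (23.9 and 29.5) was below the member median of 36.1. Endothelial markers were acetylated in this tissue as well: all 6 (Pecam1, Cdh5, Kdr, Tek, Erg and Egfl7) had a promoter region in both replicates, with lengths from 5777 to 10000 bp and signal values from 18.3 to 25.8. The part of endothelial cells in the Hspa12b value was not tested. In whole tissue, fewer cells of a type and less acetylation per cell cannot be told apart. Hspa12a, the paralogue of Hspa12b, had 2131 bp (1867 and 2094 bp), so the pair differed by more than the replicates of either.

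The members that act in mitochondria or in the ER ranged from strong to weak. Hspa9, the HSP70 of mitochondria, had 5229 bp (4738 and 5314 bp) with a signal value of 58.3, among the 5 highest (46.5 and 57.6). Hspd1 and Hspe1, the chaperonin and its lid, start head to head and shared 1 region of 4502 bp (chr1:55085666-55090167), which was the whole acetylated length of both. In the replicates these lengths were 3532 and 4526 bp. Hspa5 had 2 regions with a gap over its start, 1 ending 92 bp upstream and 1 beginning 82 bp downstream of it, and a length of 2770 bp (2380 and 2776 bp). Hsp90b1 had 3973 bp (3154 and 4231 bp). Hspa13, a further HSP70 protein of the ER, had a signal value of 9.91 (11.6 and 11.2), among the 5 lowest, and 1675 bp (1428 and 1752 bp).

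The cytosolic HSP90 pair was acetylated to unequal extent. Hsp90ab1, the constitutive form, had 3856 bp (3597 and 3803 bp) and Hsp90aa1, the inducible form, had 1894 bp (2004 and 1949 bp). Both replicates of Hsp90ab1 lay above both of Hsp90aa1 by more than 1500 bp. The signal values were in the other order in the replicated list, 36.2 for Hsp90ab1 and 41.8 for Hsp90aa1, and the replicates were split, with 39.3 and 35.8 in the first and 39.2 and 39.8 in the second. The remaining HSP70 gene, Hspa14, which acts at the ribosome, had 1838 bp (1725 and 1844 bp).

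J-domain genes ranged from no acetylation to some of the longest stretches. Of the 45, 39 had a promoter region (86.7%), 38 of them in both replicates, and lengths ran from 0 to 9301 bp. Their median of 2680 bp (2065 and 2565 bp) overlapped that of all CpG-rich genes, 2424 bp (2018.5 and 2411 bp), in the replicates. All 4 genes of class A, which carry the full set of bacterial DnaJ domains, had one, with a median of 4765.5 bp. It was present at 10 of the 13 genes of class B, which act mainly as HSP70 partners in folding, with 2689 bp. Class C, which holds the specialised members that share little beyond the J-domain, had 25 of 28 and 2139.5 bp.

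In class A, Dnaja2 led with 6618 bp (5400 and 6322 bp) and a signal value of 57.1 (45.9 and 57.0). Dnaja4 had 5426 bp (4200 and 5234 bp), the mitochondrial Dnaja3 4105 bp (3325 and 3959 bp), and Dnaja1, an inducible partner of HSC70, 3240 bp (2959 and 3617 bp). Dnaja2 had the longest stretch of the class in each replicate.

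In class B, Dnajb5, a cytosolic relative of Dnajb1, had 9301 bp, with 9066 and 9279 bp in the replicates, longest of all members in replicate 1 and second in replicate 2. It also had a signal value of 60.0 (50.5 and 57.5), among the 5 highest. Its region (chr4:42949745-42960305) was 10561 bp wide and covered the whole gene of 9612 bp, and the replicates covered 97.2% and 100% of it. Dnajb5 was thus high in extent and in strength alike. Dnajb4, a relative that is also heat-inducible, had 6186 bp (5312 and 5763 bp) around a start inside the gene, in the region chr3:152191037-152195127 (signal value 29.6) and a weaker neighbour. Its highest signal value, 60.9 (52.9 and 56.2), lay at another of its starts, in a region of 4063 bp (chr3:152208524-152212586) that also held a start of Fubp1. For Dnajb4 length and signal therefore belong to different starts. Dnajb6, a Z-disc chaperone whose human form is mutated in a limb-girdle muscular dystrophy, had 5555 bp (3875 and 5326 bp). The difference of 1451 bp was among the 5 largest.

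Dnajb1, the classical inducible partner of HSP70, had a length equal to the median of class B. The length was 2689 bp (2684 and 2565 bp) and the signal value 47.1 (40.1 and 42.4). Dnajb2, known from neurons, had 3716 bp (3115 and 3857 bp) with a signal value of 56.2. Of the class B genes of the ER, Dnajb14 and Dnajb12 had 4827 and 4478 bp, and Dnajb11 and Dnajb9 had 2335 and 2253 bp. For Dnajb14, 3138 bp of this was a region at the start of H2afz. In class B, all but 4 genes (Dnajb3, Dnajb7, Dnajb8 and Dnajb13) had more than 2000 acetylated bp.

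In class C, the longest stretch was that of Dnajc4, counted here as mitochondrial, with 6092 bp (4806 and 5901 bp). Its own promoter region (chr19:6991605-6993712) was 2108 bp wide with a signal value of 16.2 (14.1 and 19.6), and the rest of the length came from 2 regions near starts of Vegfb and of Nudt22 and Trpt1. Next came Dnajc25 with 5305 bp (4857 and 5278 bp) and Dnajc14 with 5235 bp, both of the ER. The replicates of Dnajc14 (3940 and 5396 bp) differed by 1456 bp, among the 5 largest differences. Dnajc3, an ER cochaperone that is induced by unfolded proteins, had 4635 bp (3521 and 4210 bp) and a signal value among the 5 highest, 62.8 (52.3 and 60.0).

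The other class C genes with a promoter region had between 1066 and 4543 bp. Dnajc7, a cochaperone of both HSP70 and HSP90, had 4543 bp, of which 2295 bp was a region of Nkiras2, and Dnajc16 had 4244 bp. Dnajc2, which acts at the ribosome, Dnajc8 and Dnajc17, which are found with splicing factors, and Dnajc5, a cochaperone of synaptic vesicles, lay between 3477 and 3695 bp. Dnajc12, a cochaperone for the enzymes that hydroxylate aromatic amino acids, had 2761 bp, with 1771 and 2893 bp in the replicates. Its difference of 1122 bp equalled that of Hspa8 as the fifth largest. The lengths of Dnajc9, Dnajc10, Dnajc27, Dnajc18, Dnajc13, Dnajc1 and Dnajc19 were between 2075 and 2680 bp, and those of Dnajc21, Dnajc15, Dnajc5b, Dnajc30, Dnajc28, Dnajc11 and Dnajc24 between 1066 and 1673 bp. Weak signal marked Dnajc24, an enzyme cofactor in diphthamide synthesis, at 11.3 (8.76 and 13.6), and Dnajc5b, a testis-biased relative of Dnajc5, at 7.08 (5.68 and 7.61). The Dnajc24 length was 1066 bp (999 and 1268 bp) and the Dnajc5b length 1461 bp (790 and 1464 bp).

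All 6 members without a promoter region were J-domain genes. Dnajc6, which encodes the neuronal clathrin-uncoating protein auxilin, Dnajc22, Dnajb7 and Dnajb8 had no acetylation in the window, at 0 bp by every list. The nearest region lay 23143 bp from Dnajc6, 24082 bp from Dnajc22, 7371 bp from Dnajb7 and 9157 bp from Dnajb8. Dnajc6 was the only one of the 6 with a CpG-rich start. Dnajb13, known from sperm flagella, had 447 bp (0 and 0 bp) from 1 region 3673 bp away (signal value 2.51). Dnajc5g had 1644 bp (1646 and 1221 bp) from 3 regions, the nearest 2846 bp from its start. A single member was called differently in the replicates: Dnajb3, a testis-biased gene, had 310 bp (0 and 327 bp). Its signal value was 3.99 (none and 4.25), the lowest signal value of all members with a promoter region. Where no region is listed, acetylation below the threshold of the lists cannot be told from none.

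Members were also grouped by known expression, induction or place in the cell. Of the 8 genes known for expression in testis (Hspa1l, Hspb9, Dnajb3, Dnajb7, Dnajb8, Dnajb13, Dnajc5b and Dnajc5g), 4 had a promoter region, beside 62.1% of all genes, with a median length of 954 bp (395 and 774 bp) and a median signal value of 7.05. Of the 8, 7 had no CpG-rich start, a type in which 33.3% of all genes had a promoter region and the median length was 0 bp. None of 6 markers of testis germ cells had one. Of the other 69 members, 67 had a promoter region (97.1%), in both replicates. Hspa2, best known from testis but not put in that list, was among these 69, with 1960 bp and a signal value of 45.9. The 14 members known as stress-inducible all had one, with a median of 3541.5 bp (3069 and 3715 bp) and a median signal value of 44.4, beside 27.8 over all genes with a promoter region. So did all 14 members of the ER, at 3371.5 bp (2767 and 3493 bp), and all 10 of mitochondria, at 3090 bp (2334.5 and 2973 bp). All 14 ER and 13 of the 14 stress-inducible members had a CpG-rich start, a type in which 90.3% of all genes had a promoter region, so these counts lie near that share. The replicate values of the ER list overlapped those of the other two, while those of the stress-inducible list lay above those of the mitochondrial list. The stress-inducible list held Hspa1a, Hspa1b, Hspa8, Hsph1, Hsp90aa1, Hspb1, Hspb8, Hspd1, Hspe1, Dnaja1, Dnajb1, Dnajb4, Bag3 and Hspa4l. Of these, Hspa8 was called constitutive above, and Hspd1 and Hspe1 were in the mitochondrial list too.

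Regions at these starts were wide and strong within the list. The 71 members had 69 different promoter regions, with a median width of 2335 bp from 310 bp for Dnajb3 to 22859 bp for Bag3, beside a median of 2040 bp over all genes with one. The median width was 4868.5 bp for small heat shock protein genes, 2578 bp for HSP70, HSP90 and chaperonin genes and 2106 bp for J-domain genes. Of the 69 regions, 9 were over 5000 bp wide, beside 3.46% of all regions in the list, most of which lie outside promoters. The median member region stood at percentile 95.2 of all regions by signal value. The median signal value was 36.1 for members and 27.8 for all genes with a promoter region. A signal value of 27.8, that of Dnajc28, stood at percentile 91.9, so promoter regions of other genes were also high in the list. For 21 members the region also lay near a start of another coding gene, so its acetylation cannot be assigned to 1 of them. Part of the length of Hspa12b, Hspb2, Hspb6, Hspb9, Dnaja3, Dnajb14, Dnajc4, Dnajc7, Dnajc8, Dnajc9, Dnajc12 and Dnajc16 came from a further region at the start of a neighbouring gene.

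**Figure D3:**
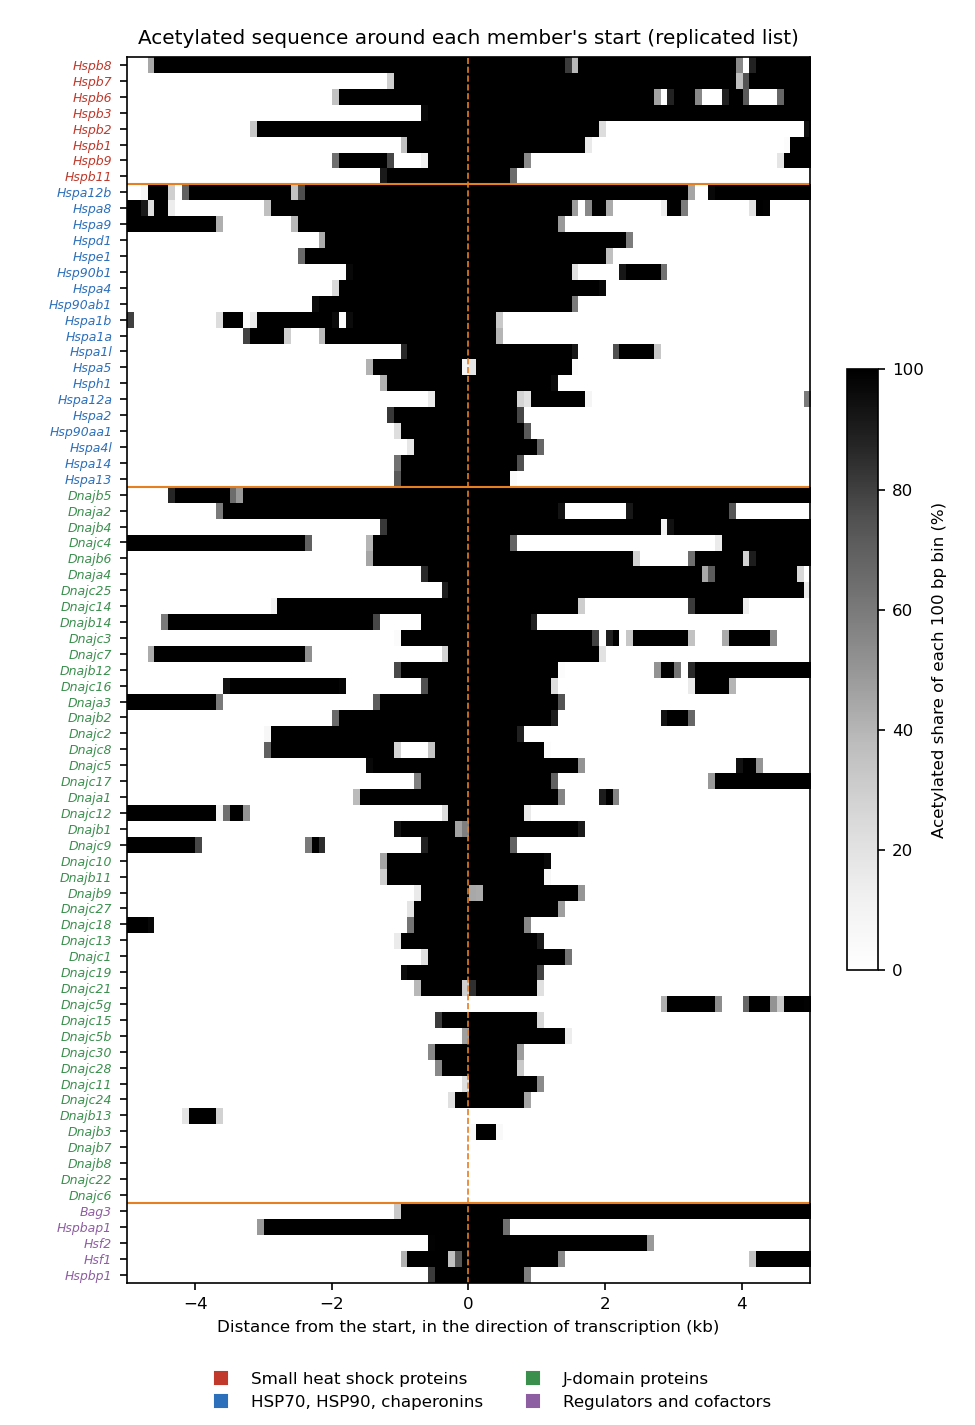
Acetylated share of each 100 bp bin (grey scale, %) in the replicated list, from 5 kb upstream to 5 kb downstream of the start (x axis, kb, in the direction of transcription) for each member (y axis, coloured by family and sorted by acetylated length within it). Hspb8, Dnajb5 and Hspa12b are dark over most of the window, Bag3 and Hspb3 are dark from the start to the downstream edge, and Hspa5 and Dnajb9 show a gap at the start.

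The families differed in where the acetylation lay. The signal maximum of the region was downstream of the start in 31 of 39 J-domain genes (79.5%), beside 69.2% of all genes with a promoter region, and in 8 of 19 HSP70, HSP90 and chaperonin genes (42.1%). The median maximum was 143 bp downstream for J-domain genes and at -223 bp, which is upstream, for the HSP70, HSP90 and chaperonin genes. Between 2000 and 1900 bp upstream of the start, on average 43.2% of the sequence was acetylated in the latter, beside 17.0% in J-domain genes and 16.4% in all CpG-rich genes. From 1900 to 2000 bp downstream, the shares were 26.2%, 13.6% and 26.1%. Nearer the start, from 1200 to 1100 bp upstream, they were 67.5%, 31.1% and 34.8%, and from 1100 to 1200 bp downstream they were 63.2%, 49.0% and 48.9%. Small heat shock protein genes had 37.4% and 63.4% in the stretches upstream, and 52.9% and 75.0% in those downstream, in order of distance, the farther first. In these stretches the excess of the HSP70, HSP90 and chaperonin genes over CpG-rich genes was larger upstream than downstream, and that of the small heat shock protein genes lay on both sides. These shares come from the replicated list, and the difference between families was not tested. Over the whole window, the HSP70, HSP90 and chaperonin genes had medians of 1797 bp upstream and 1420 bp downstream. Gene by gene they were split: 9 of the 19 had more acetylated bases downstream than upstream. Of the 19 HSP70, HSP90 and chaperonin genes, 6 shared their region with another coding gene. Hspd1 and Hspe1, and Hspa1a and Hspa1l, start in opposite directions. Part of the sequence upstream of each thus counted downstream of its partner. Between 2000 and 1900 bp upstream, Hspd1, Hspe1 and Hspa1a were acetylated throughout and Hspa1l was not. From 1900 to 2000 bp downstream, only Hspd1 and Hspe1 of these were. The part of such pairs in the upstream excess was not tested.

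**Figure D4:**
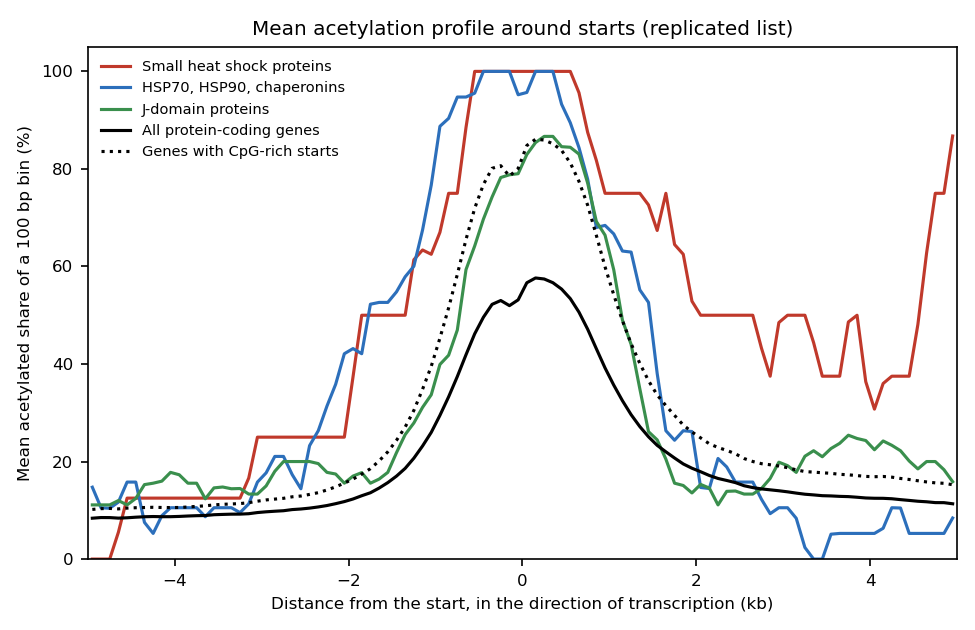
Mean acetylated share of 100 bp bins (y axis, %) against distance from the start (x axis, kb, in the direction of transcription) in the replicated list, for small heat shock protein genes (red, 8 genes), HSP70, HSP90 and chaperonin genes (blue, 19), J-domain genes (green, 45), all genes (black) and all genes with CpG-rich starts (dotted). At 2 kb upstream the blue line (43.2%) lies above the green line (17.0%), and from 1 kb downstream the red line lies above the others.

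Acetylation ran through the whole gene in a few members. At least 90% of the gene was covered in 8 of the 77, beside 2.29% of all genes, and 6 of these were small heat shock protein genes, whose median gene is 2455.5 bp long and fits into a promoter region. The other two were Dnajb5 and Bag3. Among the 38 members of 20 kb or longer, Bag3 was the only one covered to 90%, beside 0.217% of all genes of that length (21 of 9678). In replicate 1 Bag3 fell short of 90%, and 0.0723% of all such genes passed. In replicate 2 it passed, as did 0.217% of such genes. Most members were at the other end: the median member had 15.9% of its gene acetylated.

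**Figure D5:**
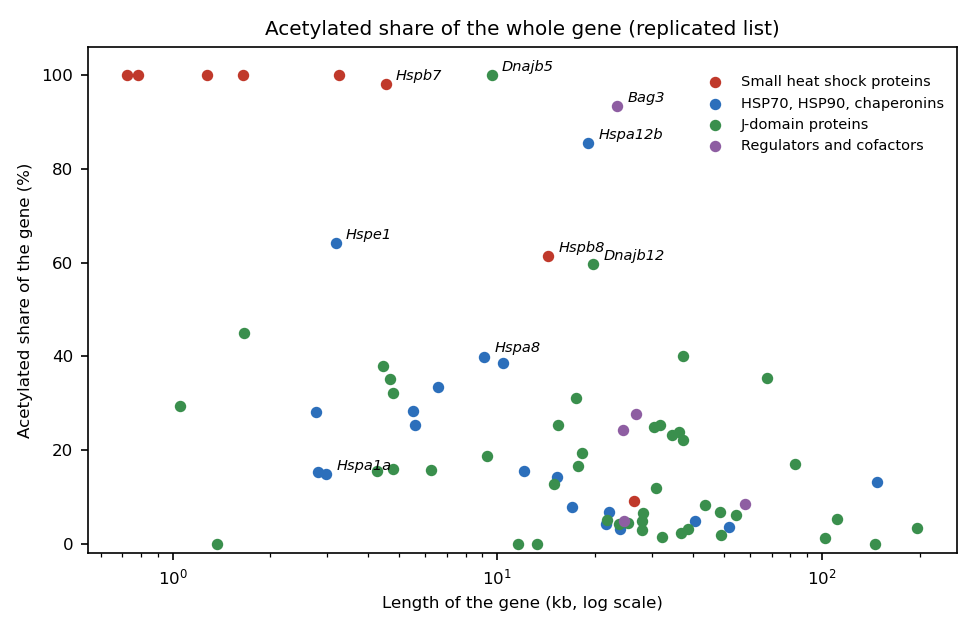
Acetylated share of the whole gene (y axis, %) in the replicated list against gene length (x axis, kb, log scale), 1 point for each member, coloured by family. Bag3 (93.4% of 23366 bp) and Hspa12b (85.5% of 19042 bp) stand apart from other members of similar length, and the points at 100% are Dnajb5 and 5 small heat shock protein genes.

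Lengths were larger in replicate 2 for most members, as they were for most genes. Replicate 2 was the longer for 65 members, replicate 1 for 7, and 5 were equal. Among genes with a promoter region, the median difference was 501 bp for members and 398 bp for all genes. Across the 77 members the replicates' lengths had a Pearson correlation of 0.981 and a Spearman correlation of 0.972, and across all 20807 genes 0.978 and 0.98. The genes share libraries and are not independent, so these correlations describe the 2 lists. Overlap of at least 50% of the shorter region was found for 68 of the 69 member regions in replicate 1 and for all 69 in replicate 2. With 50% of both regions required, 64 were shared with both replicates. Each replicate had contributed to the list that holds these regions, so the counts are no independent measure of agreement. No such share over all regions is given beside them.

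The sequence elements printed above were more frequent among these promoters than among all RefSeq promoters of the same 300 bases. RefSeq windows were matched for 62 of the 77 members, with 79 windows, and were searched on both strands. A heat shock element of 3 units (GAANNTTC followed by NNGAA, or TTCNNGAA followed by NNTTC) was in 6 of the 79 (7.59%), beside 0.516% of all 19174, and these belonged to Dnajb6, Hspd1, Hspe1 and Hsph1. Hspd1 and Hspe1 share their region. An element of 2 units, which every element of 3 units contains, was in 19 windows (24.1%) of 17 genes, beside 13.7% of all. Of the 12 stress-inducible members with a window, 10 held it, and of the 7 small heat shock protein genes with a window, 4 held it (Hspb1, Hspb3, Hspb6 and Hspb8). The ER stress response element was in 3 windows (3.8%), beside 0.136%, those of Dnajc3, Hsp90b1 and Hspa5, all genes of the ER list. These members were named for these responses, so the counts describe known promoters and carry no independent evidence.

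General promoter elements were counted in the same windows. The CCAAT box (CCAAT), which the ER stress response element contains, was in 39.2% of member windows and 37.5% of all. The GC box (GGGCGG) was in 72.2% and 48.3%, and the TATA box (TATAAA) in 5.06% and 12.1%, at Dnajc19, Dnajc24, Hspb3 and Hspb6. Of the 79 member windows, 65 (82.3%) were acetylated over all 300 bases, beside 49.7% of all windows, and 7 were not acetylated at all. A match is a string of letters and was not tested for binding.

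Other chaperone genes outside the naming rule resembled the members. Of 49 of them (the cytosolic chaperonin TRiC, prefoldins, HSP90 cochaperones, BAG proteins and others), 47 had a promoter region, in both replicates (95.9%, beside 62.1% of all genes), with a median length of 2579 bp (2208 and 2645 bp). A CpG-rich start was found in 42 of the 49 (85.7%). In that type 90.3% of all genes had a promoter region, and the median length was 2424 bp (2018.5 and 2411 bp). The exceptions among the 49 were Cryaa, the lens crystallin, and Hsf5, a testis factor, both at 0 bp. The longest were Fkbp5, an HSP90 cochaperone induced by glucocorticoids, which was acetylated over all 10000 bp in both replicates, Stub1, the ubiquitin ligase that works with HSP70, with 8722 bp (7978 and 8805 bp), and Serpinh1, the collagen chaperone HSP47, with 8172 bp (7325 and 7997 bp).

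The partners of BAG3 and HSPB8 in the turnover of Z-disc proteins were acetylated too. All 8 genes of this list had a promoter region in both replicates, beside 59.5% of all genes. Their median length was 6059 bp (4781.5 and 5591.5 bp), beside 1524 bp (1241 and 1517 bp) over all genes. Of the 8, 6 had a CpG-rich start, a type in which 90.3% of all genes had a promoter region and the median was 2424 bp. Besides Stub1, the longest were Flnc, the filamin that the complex removes, with 8266 bp (8042 and 8689 bp), and Sqstm1, the autophagy receptor p62, with 7160 bp (5746 and 7952 bp). Tsc1, Vps16 and Vps18, which act in growth control and vesicle fusion, had between 2017 and 2203 bp. The list thus held long and short stretches.

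Markers placed the tissue as fast skeletal muscle with other cell types in it. All 10 fast fibre markers had a promoter region in both replicates with a median length of 9670 bp, and 0 of 8 heart markers had one. All 5 slow fibre markers had one (3 and 4 of them), with a median signal value of 3.65. All 5 smooth muscle, 4 fibroblast and 6 endothelial markers had one in both replicates. Of 5 macrophage markers, 2 had one in the replicated list (2 and 1 in the replicates). Only C1qb of these had one in both replicates, with a signal value of 4.35 (5.21 and 5.20). Which cells of the muscle carried the acetylation of the chaperone genes was not tested.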

How the data were processed

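H3K27ac was measured in 4 libraries of gastrocnemius, in 2 biological replicates that each had 2 technical libraries and 1 alignment, per the deposited descriptions. The authors deposited 4 peak lists on mm10: 1 per replicate, 1 from the pooled reads and 1 called replicated. For each peak they deposited a signal value, whose scale no source used here states, and a q-value as −log10. Neither the aligner nor the peak caller and its thresholds are stated in the labels or deposited descriptions. Read depth is unknown, so no interval for counting error is given.

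Starts came from GENCODE M21 (basic transcripts, protein-coding genes, chromosomes 1 to 19), and the lists were checked against GRCm38: no peak ran past a chromosome end. A promoter region came within 1000 bp of a start. Acetylated length was counted within 5000 bp to each side. Regions of 2 lists were shared where the overlap reached 50% of the shorter one. CpG-rich starts were called from the 1000 bp around any start. RefSeq promoter windows (GRCm38.p6) of 300 bases matched 62 members. Those of Dnajc11, Dnajc12, Dnajc18, Dnajc2, Dnajc22, Dnajc30, Dnajc5, Dnajc5b, Hsf1, Hsp90aa1, Hsp90ab1, Hspa13, Hspa8, Hspa9 and Hspb2 were not matched. Of 50 other chaperone genes listed, 49 matched a protein-coding gene.

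The members and gene lists were chosen with earlier results of these data known, and the lists by function from general knowledge. With 1 group of samples there was no test and no p-value. Counts and medians were set beside those of all genes and beside each replicate, and the functions that compute them were tested on simulated regions. Named with full values were the 10 longest members, those without a promoter region or called in 1 replicate only, the 5 with the highest and the 5 with the lowest signal value, the 5 that differed most between replicates, all small heat shock protein genes, Hsf1, Hsf2 and Bag3. Other lists were named by their 3 longest genes and those without a promoter region. The alternatives tried were the pooled list, each replicate alone, peaks with −log10 q of at least 5, other windows around the start and the 5′ end of the gene model in place of all starts. Python 3.11.15, numpy 2.4.6, pandas 2.3.3 and matplotlib 3.10.9 were used.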

Additional observations from a re-analysis of the deposited data

How the results depend on the processing

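All 38 alternatives run on counts stayed within 1.5 times of the counts reported. That band is wide: most genes of each list had a promoter region, so a count could hardly leave it. The counts were 69 to 73 members, 38 to 41 J-domain genes, 18 or 19 HSP70, HSP90 and chaperonin genes, and 45 to 47 other chaperone genes. All 8 small heat shock protein genes were counted each time. Between 64 and 68 member regions were shared with both replicates, which had each contributed to the list that holds these regions. With only the 5′ end of each gene model as its start, Dnajc25 and Hsp90aa1 had no promoter region. The list of replicate 1 lacked the one of Dnajb3, and a window of 5000 bp added Dnajb13 and Dnajc5g.

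Median lengths moved with the window and with the replicate. From 1 replicate alone they ran from 2380 to 2882 bp for members, 4643 to 5762 bp for small heat shock protein genes, 2380 to 2861 bp for HSP70, HSP90 and chaperonin genes, 2065 to 2565 bp for J-domain genes and 2208 to 2645 bp for other chaperone genes. With 2500 bp to each side they were, in the same order, 2537, 3413.5, 2823, 2253 and 2152 bp, and with 25000 bp they were 7181, 15377.5, 7577, 6068 and 6963 bp, since the window bounds the length. With peaks of −log10 q of at least 5, the HSP70, HSP90 and chaperonin genes had 2770 bp, and the cause was not tested. Under every alternative run on medians, small heat shock protein genes were above HSP70, HSP90 and chaperonin genes, and these above J-domain genes.

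No paired analysis was possible because the series has 1 group of samples and nothing to pair. Library depth is unknown, so regions too weak for a list cannot be told from absent ones, and the smaller list of replicate 1 bounds what both replicates can show.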
